A study of Drosophila melanogaster with 6 samples.

Results

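RNA of Drosophila melanogaster rescue larvae was compared with RNA of control larvae, with 2 libraries of each, to ask which genes still differed from the control when the [U6+] element was present. The genotype written for the rescue larvae is fiomut ,[U6+]/fiomut ;U6mut/U6+, so they lacked an unmutated fio chromosome, carried 1 mutant U6 chromosome and had the [U6+] element. Control larvae were fiomut/cyo: they carried a fio mutation over the CyO balancer, a rearranged second chromosome that keeps a mutation heterozygous. All larvae therefore carried at least 1 fio mutant chromosome, and the third chromosome of the control is not given. The groups differ in the fio genotype, the balancer and the element at once, and whether they also differ in the U6 mutation is not stated, so the effects of these cannot be told apart. A further 2 libraries came from mutant larvae with the genotype fiomut/fiomut ;U6mut/U6+, which are the rescue larvae without the element, and their values are given here only beside those of the other groups. RNA was extracted from larvae with Trizol, and the polyadenylated part was sequenced. The labels give no age or stage, nor the kind of fio mutation or what the element contains, and the name of the element was read as a U6 gene copy. The comparison holds 4 of the 6 libraries and 11866 of the 17908 genes in the count table, those with enough counts to be tested.

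METTL16, the protein that fio is taken to encode from the title of the series, is a methyltransferase that places m6A on the U6 small nuclear RNA. U6 is the spliceosomal RNA that pairs with the start of an intron, and the modified base lies in the stretch that makes this contact. Larval body wall muscle is built of actin, myosin and troponin and draws on glycolysis and mitochondrial respiration for ATP. Heat shock genes encode chaperones for damaged proteins, and Turandot genes encode small secreted peptides that are made under stress.

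The libraries held 15983161 and 16511758 counts in rescue and 16234339 and 17847161 counts in control, with a median of 239 counts per tested gene and library of these 4. Levels are CPM, a gene's share of the library's counts after trimmed-mean scaling. Genes were called by edgeR's quasi-likelihood test where the p, adjusted over all tested genes by Benjamini-Hochberg, was under 0.05. Whether the 2 libraries of a genotype stem from different animals is not stated, so the p-values speak of the spread between these samples alone, which may be technical. Across genes, log2 CPM of the rescue libraries correlated at r = 0.973 and that of the control libraries at r = 0.953. Against the rescue libraries r was 0.954 and 0.945 for control 2 and 0.925 and 0.912 for control 1. Of all counts, 8.22 and 7.40% in rescue and 11.6 and 8.62% in control were mitochondrial large ribosomal RNA. Genes of the larval cuticle summed to 48239 and 38897 CPM in rescue and to 86358 and 57888 CPM in control, so markers of the labelled stage were abundant in every library of the comparison. CG7544, the gene that encodes METTL16 (2R, 15147860 to 15149709), had 22 and 46 counts in rescue and 41 and 35 counts in control, and the values overlapped (log2 difference -0.44, SE 0.54, edgeR adjusted p = 0.701). The U6 genes snRNA:U6:96Ab and snRNA:U6:96Ac had 0 counts in all libraries, which allows up to 1.88e-05% of a library (3 counts, counting error only), and snRNA:U6:96Aa had 1 count in control 1 and 4 and 1 counts in the mutant libraries. As the libraries hold polyadenylated RNA, this bounds the share of U6 in them and not its level in the larvae. The genotype labels could therefore not be checked from these genes.

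Of the 11866 genes tested, 76 differed between rescue and control, or 0.640%. Of these, 42 rose (0.354% of the tested genes) and 34 fell (0.287%), each at least 2-fold and with no overlap between the libraries of the groups. The smallest change among them was 1.25 on the log2 scale. Genes that rose included the Turandot peptides TotA, TotB and TotC, the chaperone gene Hsp68, the amylase gene Amy-d and the eye pigment transporter gene w. Genes that fell included the troponin gene TpnC47D, the yellow family genes yellow-d2 and yellow-f2, and nol. In simulated data for this comparison with 200 changed genes among 11866, it called 4.6% of genes changed 2-fold and 67.2% of genes changed 4-fold, and 10.8% of its calls were false. At an unadjusted p under 0.05, 1087 genes were higher (9.16%) and 1147 lower (9.67%) in rescue. The rescue libraries both lay above both control libraries for 3640 genes (30.7%) and below both for 2790 genes (23.5%), and the median log2 difference over all tested genes was 0.07. These shares are the background for the gene lists that follow. The count of calls depended on single libraries and on the tool: it was 778 without control 2, 50 without control 1 (wherever a library is left out, the other groups supply the spread of the lone one), and 1026 with DESeq2 (3.30% of the tested genes higher and 5.34% lower). Uncalled genes named below were chosen after their values were seen, apart from Hsp23, Hsp27, Hsp83, l(2)efl, Act57B, Mlc2, Mhc, Argk, Ald, Gapdh1, Gapdh2, Eno and Cpr76Bc, which the naming rule gave.

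**Figure D1:**
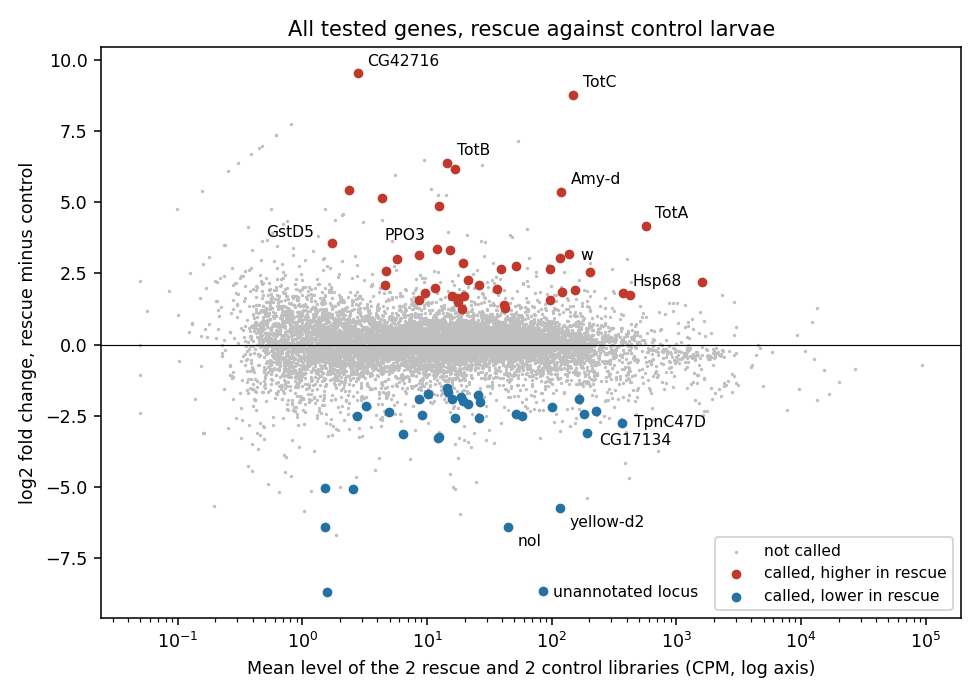
Log2 fold change of rescue over control (vertical axis) against the mean CPM of the 4 libraries (horizontal log axis) for the 11866 tested genes; each point is a gene, red and blue points are the 42 called genes that rose and the 34 that fell, and labelled genes are named in the text. The abundant called genes include TotA, TotC and Hsp68, the most abundant genes of all are not called, and fitted values above about 6 in size belong to genes with few or no counts in 1 group and depend on the prior count.

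Among the stress genes called, the Turandot genes had the largest increases. TotA (3R, 20871036 to 20871700) had 1211 and 933 CPM in rescue, against 25.8 and 92.4 CPM in control, with 407 and 217 CPM in the mutant libraries. It rose by 4.18 on the log2 scale (SE 0.65, edgeR adjusted p = 0.0497). TotC (3R, 20872988 to 20873580) had 396 and 199.6 CPM in rescue and 0.451 and 0.881 CPM in control, and 35.0 and 5.37 CPM in the mutant. It rose by 8.75 (SE 1.09, adjusted p = 0.0291), and both rescue libraries lay above all 4 others for TotA and for TotC. TotB (3R, 20873938 to 20874522) had 29.3 and 27.8 CPM in rescue and 0.451 and 0.235 CPM in control. Its mutant levels of 0.423 and 0.0597 CPM were close to those of control, and rescue was above mutant for TotB (log2 6.85, SE 0.57, edgeR adjusted p = 0.00150). TotB rose by 6.39 (SE 0.55, adjusted p = 0.00894), and its 1025 rescue counts over 10 control counts put it 86.7-fold higher (95% counting interval 47.0 to 181). TotF, TotX and TotZ had 22, 44 and 32 counts summed over the rescue libraries and 0 in control, so they were at least 6.2-fold, 12.4-fold and 9.03-fold higher in rescue at a floor of 3 counts over the control group. These 3 genes were not called (adjusted p = 0.0966, 0.104 and 0.147).

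The JAK-STAT pathway carries the signal of secreted Unpaired cytokines from the receptor Dome through the kinase Hop to the transcription factor Stat92E, and Turandot genes are among its targets. The cytokine gene upd2 had 1.99 and 1.26 CPM in rescue and 0.376 and 0.117 CPM in control (log2 2.74, SE 0.64, adjusted p = 0.0847). Its mutant levels were 2.60 and 2.99 CPM, above both other groups. The cytokine gene upd3 had 1.82 and 2.40 CPM in rescue and 1.05 and 0.528 CPM in control and was not called. The receptor gene dome had 70.4 and 125 CPM in rescue and 62.5 and 53.8 CPM in control (log2 0.75, adjusted p = 0.265). The genes hop and Stat92E differed by 0.00 and 0.12 on the log2 scale, and Socs36E, a feedback inhibitor of the pathway, overlapped between the groups. Of the 14 tested Turandot and JAK-STAT genes 3 rose and 0 fell, 9 were higher at an unadjusted p under 0.05 and 6 were called by DESeq2, and the median log2 difference was 2.09, or 2.03 with the genes that lack control counts at their bound. TotB, TotF, TotX and TotZ had enough counts to be tested in the rescue libraries alone. These list counts and medians are therefore partly set by the filter. Victoria (2 and 12 counts in rescue, 0 in control) and TotM (1 and 0 in rescue, 2 and 0 in control) were not tested. Without control 1 the calls of TotA and TotC were lost (adjusted p = 0.0505 and 0.0869), and over 10 alternatives the adjusted p ranged from 2.67e-11 to 0.115 for TotA and from 4.85e-12 to 0.0869 for TotC. TotB was called under all 10.

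Among heat shock genes, Hsp68, an inducible chaperone of the Hsp70 class, was called. Hsp68 (3R, 24055080 to 24057310) had 682 and 469 CPM in rescue and 148 and 183 CPM in control, with 67.9 and 61.1 CPM in the mutant. Its rise was 1.80 in log2 units (SE 0.27, edgeR adjusted p = 0.0433), with rescue levels above those of both other groups. The call was lost without rescue 1 (adjusted p = 0.0862) or control 1 (0.119), within a range of 3.07e-08 to 0.119 over 10 alternatives, and the gene overlaps CG6000 and CR44097. The 6 copies of Hsp70 are near-identical, so reads may be split between them, and they were also summed. Their sum was 565 and 246 CPM in rescue, 112 and 144 CPM in control, and 10.9 and 3.52 CPM in the mutant. Each copy was higher in both rescue libraries than in both control libraries, and none was called (log2 1.02 to 2.24).

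Small heat shock genes encode chaperones that hold unfolded proteins. Those tested at 67B, Hsp23, Hsp26, Hsp27, Hsp67Ba and Hsp67Bc, were higher in both rescue libraries and were not called, while Hsp22 had 0 counts in every library and CG4456, with 5 and 10 counts in rescue and 5 and 7 counts in control, was too low to be tested. Hsp23 had 1404 and 1555 CPM in rescue, against 209 and 877 CPM in control (log2 1.45, SE 0.61, adjusted p = 0.260). Hsp27, its neighbour on 3L, had 766 and 699 CPM in rescue and 163 and 511 CPM in control (log2 1.12, SE 0.48, adjusted p = 0.265). The control libraries differed more than the rescue libraries for both genes, control 2 being the higher. Without control 2, which leaves control 1 as the lone control library with its spread assumed to be that of the other groups, both were called, at log2 2.82 and 2.17 (adjusted p = 0.0162 and 0.0136, the lowest of 10 alternatives, with highest values of 0.564 and 0.536). Hsp26 had 761 and 636 CPM in rescue and 289.8 and 418 CPM in control. The alpha-crystallin gene l(2)efl had 813 and 978 CPM in rescue, against 590.4 and 649 CPM in control (log2 0.53, adjusted p = 0.306). Hsp83, the Drosophila Hsp90, had 2444 and 1309 CPM in rescue and 1618 and 1389 CPM in control, and the values overlapped. Of the 17 tested heat shock genes 1 rose and 0 fell, 11 were higher at an unadjusted p under 0.05, and 13 were higher without overlap between the groups, or 76.5% against 30.7% of all genes. The 17 and the 13 both include the 6 near-identical Hsp70 copies, each counted singly, so these members are not independent. The median log2 difference of the 17 genes was 1.12, while the median of mutant minus control, which shares the control libraries, was -3.01.

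**Figure D2:**
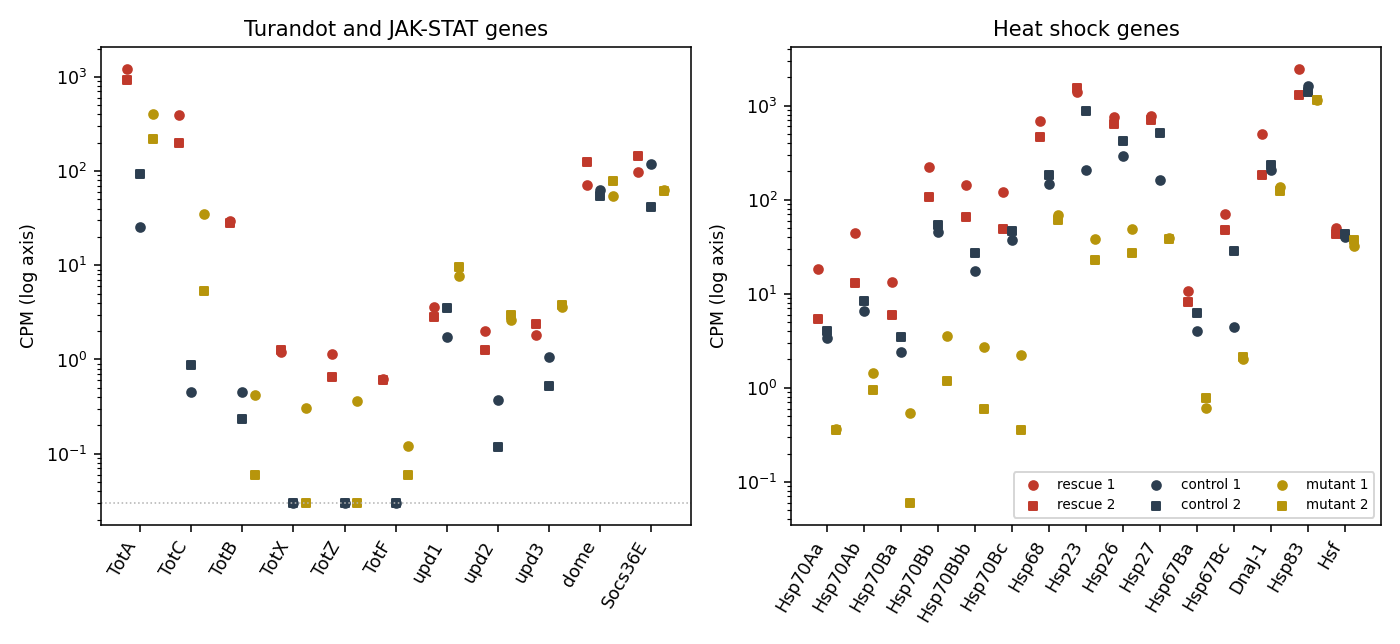
CPM (vertical log axis) of Turandot and JAK-STAT genes (left) and heat shock genes (right) in each library; red, dark blue and yellow points are rescue, control and mutant libraries, circles are library 1, squares library 2, and points on the dotted line are 0. Both rescue points of TotA, TotC, TotB and Hsp68 lie above all control and mutant points, and the Hsp23 and Hsp27 points of control 1 lie well below those of control 2.

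The other stress lists had no calls by edgeR. Of 23 genes for p53 signalling and DNA damage, 15 were higher and 2 lower without overlap (65.2% and 8.70%) and by unadjusted p 8 were higher and 1 lower, with a median of 0.53. DESeq2 called none of them. The transcription factor gene Xrp1 had 727 and 739.5 CPM in rescue, 571 and 446 CPM in control, and 1059 and 1361 CPM in the mutant. The end-joining gene Ku80 had 17.2 and 14.3 CPM in rescue and 12.7 and 8.57 CPM in control, with 43.9 and 30.3 CPM in the mutant, so the rescue levels of both genes lay between those of the other groups. Of 27 oxidative stress genes, Gclc, the catalytic subunit for the first step of glutathione synthesis, differed most, with 84.0 and 72.8 CPM in rescue and 37.5 and 26.5 CPM in control (log2 1.29, SE 0.24, adjusted p = 0.0598). With an unadjusted p below 0.05, 2 oxidative stress genes were higher and 3 lower, and DESeq2 called 1 in each direction. Among 23 genes of endoplasmic reticulum stress and the ATF4 pathway the median was -0.09, with 1 higher and 2 lower by unadjusted p and 2 lower by DESeq2. Gfat1, which starts the hexosamine pathway, was the lowest of them, with 233 and 187 CPM in rescue and 665 and 400.1 CPM in control (log2 -1.34, adjusted p = 0.0820). For 23 constitutive chaperone genes the median was 0.04, with 0 higher and 1 lower by unadjusted p and 0 called by DESeq2.

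Genes of the contractile apparatus stood lower in rescue than in control, and TpnC47D passed the test. TpnC47D (2R, 11273845 to 11275286), a calcium-binding troponin C of the thin filament, had 121 and 69.8 CPM in rescue, against 845 and 442 CPM in control, and 192 and 173 CPM in the mutant. The decrease was -2.76 in log2 units (SE 0.40, edgeR adjusted p = 0.0414), with rescue below both other groups. The call was lost without rescue 2 (adjusted p = 0.105) or control 1 (0.0629), and over 10 alternatives the adjusted p ranged from 3.06e-09 to 0.115. Of the 42 tested muscle genes 1 was called, 33 were lower and 3 higher without overlap between the groups (78.6% and 7.14%, against 23.5% and 30.7% of all genes), and by unadjusted p 30 were lower and 1 higher. DESeq2 called 27, all lower. By edgeR a further 20 had an adjusted p of 0.0562 to 0.0917, all lower, where 2.96% of all tested genes were lower and 2.19% higher at an adjusted p under 0.1. The median log2 difference of the list was -1.31, with -0.67 for mutant minus control, a comparison that shares the control libraries.

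The genes of the thick filament were among the most abundant muscle genes. The myosin heavy chain gene Mhc (2L, 16766566 to 16788766) had 2929 and 2296 CPM in rescue, 16727 and 8692 CPM in control, and 5371 and 7087 CPM in the mutant (rescue minus control log2 -2.28, SE 0.39, adjusted p = 0.0562). The myosin light chain gene Mlc2 had 4758 and 5060 CPM in rescue and 17432 and 11504 CPM in control (log2 -1.56, SE 0.31, adjusted p = 0.0661). For both genes every rescue library lay below every control and mutant library, and the level in control 1 was above that in control 2. The paramyosin gene Prm had 1544 and 1478 CPM in rescue and 4534 and 2856 CPM in control (log2 -1.29, adjusted p = 0.0809). Of the thin filament, the larval actin gene Act57B had 5941 and 5009 CPM in rescue, against 27721 and 14743 CPM in control (log2 -1.96, SE 0.36, adjusted p = 0.0598). The tropomyosin genes Tm1 and Tm2 differed by -1.42 and -1.46, and the troponin T and I genes up and wupA by -1.34 and -1.57, each with an adjusted p between 0.0598 and 0.0651. The giant elastic proteins of sls and bt, which span the sarcomere, differed by -1.72 and -1.95 (adjusted p = 0.0887 and 0.0917). Arginine kinase, which buffers ATP in insect muscle, is encoded by Argk, which had 2494 and 2838 CPM in rescue and 8613 and 5929 CPM in control (log2 -1.45, SE 0.28, adjusted p = 0.0641).

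Of calcium handling, a pair of uncalled genes is given as an example. The calcium pump gene SERCA had 875 and 742 CPM in rescue and 4066 and 2049 CPM in control (log2 -1.92, adjusted p = 0.0651), and the calcium release channel gene RyR had 33.3 and 20.5 CPM in rescue and 168 and 94.3 CPM in control (log2 -2.28, adjusted p = 0.0583). Other genes of the list differed little or were higher in rescue. Mef2, the transcription factor of muscle differentiation, had 78.6 and 75.5 CPM in rescue and 85.2 and 88.2 CPM in control, a log2 difference of -0.17 (adjusted p = 0.726). The myosin chaperone gene unc-45 had 45.5 and 42.5 CPM in rescue, against 36.7 and 28.9 CPM in control (log2 0.42, adjusted p = 0.345), and sals, whose product lengthens thin filaments, overlapped between the groups. The integrin gene mys differed by 0.21, and its partner gene if, at 74.0 and 67.0 CPM in rescue and 148 and 90.0 CPM in control, by -0.76.

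The 42 muscle genes summed to 35016 and 32692 CPM in rescue, 126147 and 76492 CPM in control, and 53372 and 55262 CPM in the mutant. The rescue sum was thus 0.334 times the control mean and 0.623 times the mutant mean. The control libraries differed from each other as well, and the muscle calls depended on which was kept: 21 genes were called without control 2, 0 without control 1 and 0 without rescue 2, each time with the lone library of its group assumed to vary like the other groups. Without control 2 the adjusted p was 0.00899 for Mhc and for Act57B and 0.0147 for Mlc2 and for Argk, while over 10 alternatives it reached 0.197, 0.251, 0.274 and 0.248. In whole larvae, fewer muscle cells and less RNA per muscle cell cannot be told apart. Markers of other tissues were summed too: glue genes of the salivary gland were at 14918 and 14973 CPM in rescue and 4101 and 11173 CPM in control, neuronal genes at 885 and 1051 CPM in rescue and 979 and 1026 CPM in control, and imaginal disc genes at 969.9 and 969 CPM in rescue and 792 and 965 CPM in control. Blood cell genes summed to 0.645 times the control mean in rescue, larval cuticle genes to 0.604 times and storage and fat body genes to 0.762 times, all with both rescue libraries below both control libraries. Such sums follow the most abundant members of a list. The median log2 differences of these lists were -0.12, -1.17 and -0.15, with 15, 21 and 7 genes below 0 and 10, 4 and 4 above. The part of tissue makeup or stage in the muscle values was not tested.

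Genes of glycolysis and sugar storage also stood lower in rescue, and none of the 30 tested was called by edgeR, while by unadjusted p 20 were lower and 0 higher, and DESeq2 called 18, all lower. The aldolase gene Ald had 1602 and 1795 CPM in rescue, 5875 and 3302 CPM in control, and 2371 and 2776 CPM in the mutant (rescue minus control log2 -1.43, SE 0.33, adjusted p = 0.0821). The enolase gene Eno had 1302 and 1414 CPM in rescue and 4265 and 2662 CPM in control (log2 -1.35, SE 0.29, adjusted p = 0.0742). Rescue lay below both other groups for these 2 genes, with control 1 the highest library. The glyceraldehyde phosphate dehydrogenase gene Gapdh1 had 1731 and 1947 CPM in rescue and 4243 and 3309 CPM in control (log2 -1.04, SE 0.26, adjusted p = 0.0969). Its paralog Gapdh2 had 1712 and 1984 CPM in rescue and 4829 and 3119 CPM in control (log2 -1.10, SE 0.29, adjusted p = 0.109), and reads shared between the paralogs may be split. Without control 2 the adjusted p was 0.0149 for Ald, 0.0162 for Eno, 0.0435 for Gapdh1 and 0.0284 for Gapdh2, and it reached 0.301, 0.292, 0.399 and 0.414 over 10 alternatives.

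Single steps of the pathway are shown by further genes. Pfk, which commits sugar to glycolysis, had 244 and 237 CPM in rescue and 739 and 471 CPM in control, and ImpL3, the lactate dehydrogenase gene, had 474 and 456 CPM in rescue and 1443 and 926 CPM in control. Hex-A, which encodes the hexokinase of the entry step, had 122 and 171 CPM in rescue and 198 and 125 CPM in control, and the groups overlapped. Both genes of the glycerol phosphate shuttle, which passes electrons from cytosolic NADH to the respiratory chain, were among those closest to the threshold. Gpdh had 126 and 128 CPM in rescue, 319.9 and 281 CPM in control, and 629 and 658 CPM in the mutant (rescue minus control log2 -1.25, adjusted p = 0.0562), and Gpo-1 had 59.9 and 36.8 CPM in rescue, 179.6 and 133 CPM in control, and 203 and 246 CPM in the mutant (log2 -1.69, adjusted p = 0.0583). Mutant levels of both genes thus lay above those of control, and rescue levels below. In glycogen storage, the branching enzyme gene AGBE had 94.2 and 95.8 CPM in rescue and 294 and 225 CPM in control (log2 -1.45, adjusted p = 0.0562), and glycogen phosphorylase, GlyP, had 718 and 909 CPM in rescue and 2441 and 1740 CPM in control. The trehalase gene Treh, the trehalose transporter gene Tret1-1, the sugar sensor gene Mondo and Zw, which starts the pentose phosphate pathway, differed by -0.07, 0.06, -0.10 and 0.12.

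Over the list, 23 genes were lower and 1 higher without overlap, 10 had an adjusted p of 0.0562 to 0.0969, and the median log2 difference was -0.92. The summed level was 13321 and 14467 CPM in rescue, 35539 and 24381 CPM in control, and 19292 and 19620 CPM in the mutant. Without control 2, 15 glycolysis and sugar genes were called, and 0 without any other library.

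**Figure D3:**
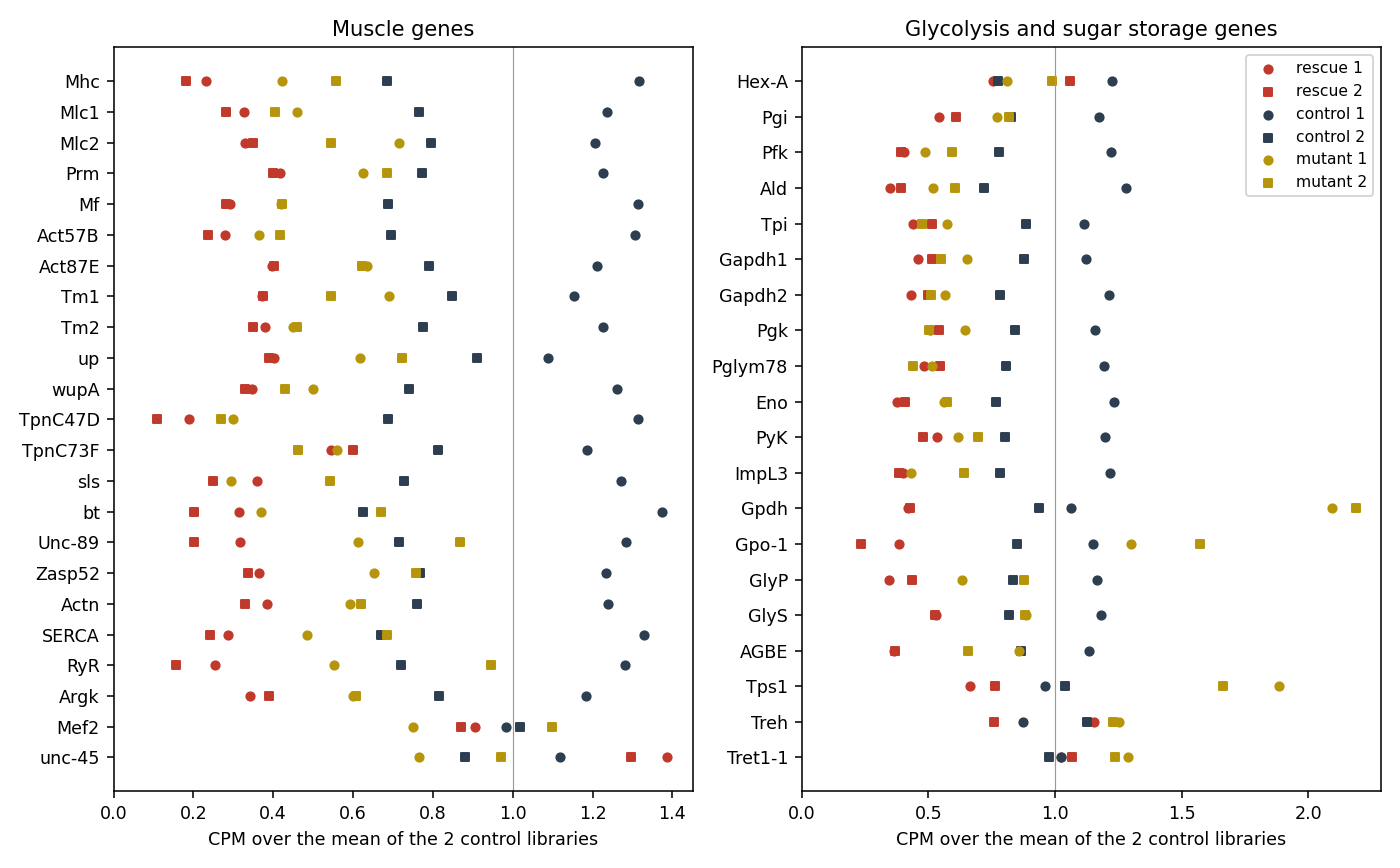
CPM in each library divided by the mean of the 2 control libraries (horizontal axis, the line at 1.0 is the control mean) for muscle genes (left) and genes of glycolysis and sugar storage (right); red, dark blue and yellow are rescue, control and mutant, circles library 1, squares library 2. For most genes both red points lie left of both dark blue points, and the exceptions include unc-45, Hex-A, Treh and Tret1-1.

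Most genes that link glycolysis to respiration were also lower in rescue. Of 36 genes of pyruvate and the citric acid cycle none was called by edgeR and 17 were by DESeq2. By unadjusted p 20 were lower and 2 higher, 28 were lower and 3 higher without overlap, and the median was -0.62. The citrate synthase gene kdn had 264 and 217 CPM in rescue and 932 and 515 CPM in control (log2 -1.59, adjusted p = 0.0731). The malate dehydrogenase gene Mdh2, later in the cycle, had 406 and 376 CPM in rescue, against 621 and 436 CPM in control (log2 -0.44). The adenine nucleotide carrier gene sesB, which exports ATP from mitochondria, had 809 and 744 CPM in rescue and 2397 and 1499 CPM in control (log2 -1.33, adjusted p = 0.0815). Pdk, the kinase that turns off pyruvate dehydrogenase, went the other way, with 234 and 321 CPM in rescue and 173 and 119.9 CPM in control (log2 0.92, adjusted p = 0.143), and the mutant had 243 and 290.1 CPM. Summed over the list, the level was 7131 and 7213 CPM in rescue, 14519 and 10275 CPM in control, and 12181 and 11668 CPM in the mutant. Without control 2, 12 genes of this list were called, and 0 without any other library.

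Nuclear genes of the respiratory chain stood lower in rescue in complexes I, III and IV and in ATP synthase. Of 81 tested genes none was called by edgeR and 50 were by DESeq2, all lower. By unadjusted p 60 were lower and 1 higher, and 22 had an adjusted p of 0.0562 to 0.0972. Among subunits of complex I, which takes electrons from NADH, 31 of 32 were lower without overlap, with a median of -0.82. All 8 tested genes of complex III, all 8 of complex IV and all 11 of ATP synthase were lower without overlap, with medians of -1.25, -1.03 and -1.19. ATPsynbeta, the catalytic subunit of ATP synthase, had 757 and 715 CPM in rescue, 2343 and 1451 CPM in control, and 1853 and 1513 CPM in the mutant (rescue minus control log2 -1.37, SE 0.30, adjusted p = 0.0767). UQCR-6.4, a small subunit of complex III, had 24.8 and 19.1 CPM in rescue and 65.4 and 53.1 CPM in control (log2 -1.43, adjusted p = 0.0562). The electron carrier gene Cyt-c-p had 71.1 and 47.9 CPM in rescue, against 233 and 148 CPM in control (log2 -1.68, adjusted p = 0.0583).

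A set of 21 paralogs, those with names ending in L and the testis-linked Cyt-c-d among them, did not share this shift. Of these, 4 were lower and 5 higher without overlap, the median was -0.03, and their summed level was low, at 54.4 and 55.4 CPM in rescue and 70.8 and 46.8 CPM in control. The 1 exception in complex I, ND-MWFE, had 2.51 and 1.53 CPM in rescue and 0.902 and 1.41 CPM in control. For mutant minus control, which shares the control libraries, the medians were -0.31, -0.48, -0.32 and -0.47 for complexes I, III and IV and ATP synthase. Summed over the 81 genes, the level was 9039 and 7629 CPM in rescue, 21806 and 14959 CPM in control, and 14848 and 11915 CPM in the mutant. Without control 2, 27 genes of the list were called, and 0 without any other library. The split by complex was made after values were seen.

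**Figure D4:**
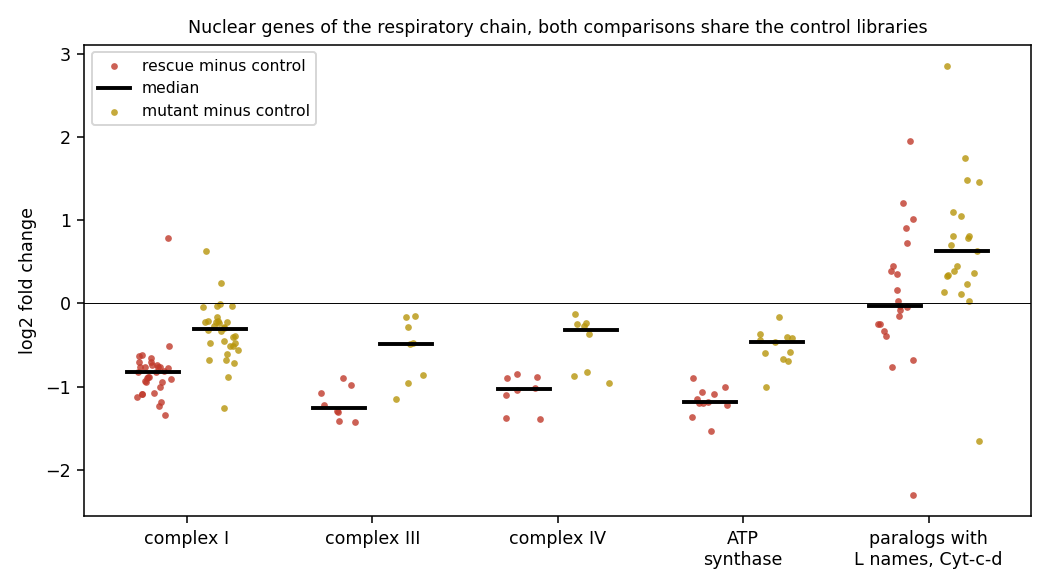
Log2 fold change (vertical axis) of each nuclear gene of the respiratory chain, grouped by complex along the horizontal axis; red points are rescue minus control, yellow points mutant minus control, black bars are medians, and both comparisons share the control libraries. Red points of complexes III and IV and ATP synthase all lie below 0, as do all but 1 of complex I, and the paralogs spread around 0.

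Genes of the mitochondrial genome showed no call by edgeR or DESeq2 among 14 tested, and by unadjusted p 1 was lower and 0 higher. COX1, a core subunit of complex IV, had 5116 and 5502 CPM in rescue and 7345 and 5229 CPM in control, and the groups overlapped. ATP6, of ATP synthase, had 862 and 931 CPM in rescue, against 2055 and 1049 CPM in control (log2 -0.79, adjusted p = 0.278). Both rescue libraries lay below control 1 for 13 of the 14 genes, and the median of -0.70 became -0.11 without control 1. Proteins of the mitochondrial ribosome are encoded in the nucleus, and 51 of their 72 tested genes were lower and 1 higher without overlap, with a median of -0.37. Cytosolic ribosomal protein genes had the same median, with 74 of 89 lower and 0 higher without overlap, and their sum was 91031 and 92385 CPM in rescue and 117038 and 117490 CPM in control. Proteasome genes had a median of 0.21, with 15 of 48 higher (31.2%, near the 30.7% of all genes) and 1 lower without overlap. Of these 3 lists no gene was called by edgeR, with 20, 7 and 0 lower and 0, 0 and 3 higher by unadjusted p, and DESeq2 called 3, 4 and 0. Lipid metabolism genes had a median of -0.21, with 12 of 34 lower and 5 higher without overlap (35.3% and 14.7%, against 23.5% and 30.7% of all genes). None of them was called by edgeR, with 6 lower by unadjusted p and 5 by DESeq2. Apoltp, a lipid transfer protein of the blood, was the lowest, at 40.6 and 35.8 CPM in rescue and 156 and 94.8 CPM in control (log2 -1.71, adjusted p = 0.0769), and the fatty acid synthase gene FASN1 had 478 and 325 CPM in rescue and 1581 and 799 CPM in control.

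**Figure D5:**
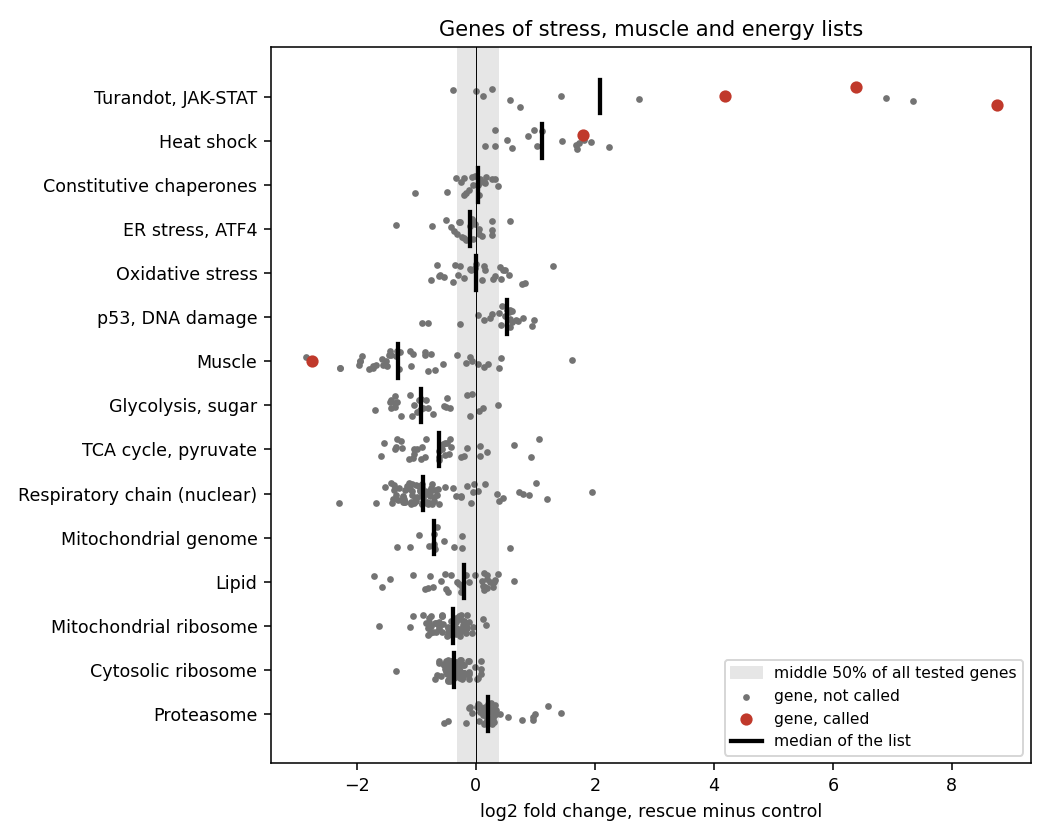
Log2 fold change of rescue over control (horizontal axis) for each tested gene of 15 lists of stress, muscle, energy and protein turnover genes (rows); grey points are genes, red points called genes, black bars list medians, and the grey band holds the middle 50% of all tested genes. Medians of Turandot and heat shock genes lie right of the band at 2.09 and 1.12, and those of muscle, glycolysis and nuclear respiratory genes left of it at -1.31, -0.92 and -0.89. The Turandot list includes genes with enough counts to be tested in the rescue libraries alone.

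The gene yellow-d2 was among those with the largest decreases. This gene of the yellow family (2R, 23381197 to 23382591) had 3.76 and 4.75 CPM in rescue, against 184 and 271 CPM in control, and 56.1 and 62.5 CPM in the mutant. Its log2 difference was -5.74 (SE 0.31, edgeR adjusted p = 0.00146), and it was called under all 10 alternatives, although it overlaps CG13551. Its relative yellow-f2, which encodes a dopachrome conversion enzyme of melanin synthesis, had 49 and 50 counts in rescue, 223 and 238 counts in control, and 379 and 232 counts in the mutant. It fell by 2.47 (SE 0.32, adjusted p = 0.0315), and rescue was also below mutant (log2 -2.73, SE 0.32, adjusted p = 0.00339). The gene nol (3L, 11130835 to 11131402) had 1.65 and 0.437 CPM in rescue and 134 and 42.7 CPM in control, and 0.423 and 0.299 CPM in the mutant. Rescue and mutant libraries were both far below control for nol (log2 -6.40, SE 0.76, adjusted p = 0.0291), which overlaps NaPi-III. CG17134 (2L, 10820705 to 10821967) had 43.1 and 37.3 CPM in rescue and 279 and 412 CPM in control, with 29.7 and 31.1 CPM in the mutant, and fell by 3.10 (SE 0.26, adjusted p = 0.00894). CG8665 fell by 2.50 (SE 0.25, adjusted p = 0.0167), with 17.1 ± 1.61 CPM in rescue and 97.0 ± 6.36 CPM in control (SD, n = 2 each), and was also called under all 10 alternatives.

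The naming rule gave further genes among the largest decreases. CG7560 fell by 5.08, CG43182 by 3.14, the carboxylesterase gene alpha-Est8 by 2.59, CG10345 by 2.52 and CG3301 by 2.44 on the log2 scale, with adjusted p from 0.0326 to 0.0497. CG7560 had 5 counts over the rescue libraries and 148 over control, which is 35.0 times as much in control (counting interval 14.7 to 109). Without rescue 2, CG7560, CG43182, alpha-Est8, CG10345, CG3301 and yellow-f2 were no longer called (adjusted p = 0.118, 0.116, 0.140, 0.119, 0.0736 and 0.0856). Without rescue 1, CG7560, CG43182, alpha-Est8, CG10345 and yellow-f2 were not (0.0724, 0.0527, 0.0707, 0.0912 and 0.0654), and without control 1, CG7560, CG10345, CG3301 and yellow-f2 were not (0.0833, 0.0616, 0.0570 and 0.0591). Over 10 alternatives these 6 genes had adjusted p from 4.70e-09 at the lowest to 0.140 at the highest. The cuticle gene Cpr76Bc was nearly absent in rescue, with 1 and 0 counts, against 57 and 52 counts in control (adjusted p = 0.0952), and the mutant libraries had 0 and 25 counts.

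The largest fitted increase belonged to CG42716 (3L, 16033778 to 16034170), with 72 and 128 counts in rescue and 0 in both control libraries. It was at least 56.4-fold higher in rescue at a floor of 3 counts over the control group (adjusted p = 0.0317), and the mutant libraries had 1 and 0 counts. The call was lost without rescue 2 (adjusted p = 0.0684, in a range of 3.35e-06 to 0.102). The neighbouring genes CG9822 (2R, 21346875 to 21347883) and CG17974 (2R, 21348945 to 21350578) moved in opposite directions. CG9822 had 20.5 and 45.7 CPM in rescue, 0.376 and 0.528 CPM in control, and 0.181 and 0.179 CPM in the mutant, and rose by 6.15 (SE 0.52, adjusted p = 0.00894). CG17974 had 3.08 and 1.58 CPM in rescue, 29.1 and 15.7 CPM in control, and 8.53 and 5.25 CPM in the mutant, and fell by 3.26 (SE 0.48, adjusted p = 0.0408). The call of CG17974 was lost without rescue 2 (adjusted p = 0.0949) or control 1 (0.0717), in a range of 1.71e-08 to 0.108. The noncoding RNA genes CR44758 and CR44756 lie close together on 2R and both rose, by 5.44 and 5.14 (adjusted p = 0.0342 and 0.0164). CR44758 was as high in the mutant, with 94 and 36 counts beside 78 and 87 in rescue and 1 and 2 in control, and lost its call without control 1 (adjusted p = 0.0953, in a range of 7.45e-06 to 0.0953). CR44756, which overlaps Gp150, had 123 and 182 counts in rescue and 4 and 3 in control, against 8 and 13 in the mutant. CG42798 rose by 3.31 (SE 0.35, adjusted p = 0.0215), with 27.8 and 27.6 CPM in rescue, 2.33 and 3.23 CPM in control, and 1.03 and 0.478 CPM in the mutant, and was called under all 10 alternatives.

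Further calls within the lists were digestive, detoxification, blood cell and eye colour genes. Amy-d, a digestive amylase (2R, 17124764 to 17126369), had 371 and 92.3 CPM in rescue, 8.04 and 3.23 CPM in control, and 309 and 354 CPM in the mutant, and rose by 5.37 (SE 0.77, adjusted p = 0.0388). It differed about 4-fold between the rescue libraries and lost its call without control 1 (adjusted p = 0.0650, in a range of 3.32e-07 to 0.116). The gut enzyme list as a whole had 1 call among 49 genes, with 18 higher and 2 lower without overlap (36.7% and 4.08%, against 30.7% and 23.5% of all genes). This list had a median of 0.97, which was -0.08 in rescue 2 when each rescue library stood alone against control in log2 of CPM plus 1. Its summed level was 20610 and 8905 CPM in rescue, 9722 and 7424 CPM in control, and 57317 and 63537 CPM in the mutant. The glutathione transferase gene GstE1 (2R, 18398393 to 18399223) had 218 and 198 CPM in rescue, 33.1 and 17.7 CPM in control, and 512 and 296 CPM in the mutant. It rose by 3.03 (SE 0.40, adjusted p = 0.0326) and overlaps GstE10. GstD5, of the same enzyme class, rose by 3.57 (SE 0.36, adjusted p = 0.0167), with 3.65 and 2.78 CPM in rescue, 0.301 and 0.235 CPM in control, and 62.2 and 49.4 CPM in the mutant. For GstD5 the rescue level lay between the other groups and closer to control. These 2 genes were the calls among 43 detoxification genes, whose median was 0.07.

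PPO3, a prophenoloxidase of lamellocytes, rose by 3.35 (SE 0.40, adjusted p = 0.0291), with 28.7 and 15.1 CPM in rescue, 2.56 and 1.76 CPM in control, and 3.45 and 3.64 CPM in the mutant. Tep1, a thioester protein of the blood, had 30.9 and 39.5 CPM in rescue, 8.72 and 5.93 CPM in control, and 14.8 and 18.8 CPM in the mutant, and rose by 2.27 (SE 0.28, adjusted p = 0.0291). The Tep1 call was lost without rescue 2 (adjusted p = 0.0624, in a range of 1.40e-08 to 0.102). Both are on the blood cell list, whose 25 genes had 8 lower and 6 higher without overlap (32.0% and 24.0%, against 23.5% and 30.7% of all genes). Its summed level was 2598 and 2850 CPM in rescue and 5087 and 3354 CPM in control. The prophenoloxidase genes PPO1 and PPO2 went the other way from PPO3, at log2 -2.24 and -2.50 (edgeR adjusted p = 0.0818 and 0.0686). PPO2 had 62.6 and 94.3 CPM in rescue and 641 and 245 CPM in control. Hml differed by -1.64 and atilla by 0.01, and neither was called. Of 35 antimicrobial and immune genes none was called by edgeR, 1 was by DESeq2, and by unadjusted p 8 were higher and 0 lower. Without overlap 7 were higher and 1 lower, both smaller shares than the 30.7% and 23.5% of all genes. The median was 0.52, and libraries of the same group were unlike on this list. In log2 of CPM plus 1 the median of rescue 1 minus rescue 2 was -0.62, and that of control 1 minus control 2 was 0.73. The eye pigment transporter gene w (X, 2790599 to 2796466), the white gene that is widely used to mark inserted elements in Drosophila, had 211 and 282 CPM in rescue, 36.8 and 17.8 CPM in control, and 31.3 and 21.7 CPM in the mutant. It rose by 3.18 (SE 0.40, adjusted p = 0.0291) and overlaps kirre, and the labels do not say which marker the element carries. The other 16 tested genes of eye and body colour were not called.

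The remaining lists, of cuticle, stage and tissue genes, had no edgeR call. The cuticle genes Cpr49Ad and Cpr49Af, which are not on these lists, were called and fell by 5.02 and 2.33 on the log2 scale. Cpr49Ad had 3 counts over the rescue libraries and 88 over control, and both genes were named after their values were seen. Of 25 larval cuticle genes 21 were lower and 4 higher without overlap, by unadjusted p 16 were lower and 2 higher, DESeq2 called 8 lower and 2 higher, and the median was -1.17. Lcp1, a major larval cuticle protein, was an exception, with 16210 and 14814 CPM in rescue and 9889 and 8005 CPM in control (log2 0.79, adjusted p = 0.169), while its relative Lcp3 had 9253 and 6190 CPM in rescue and 33259 and 17850 CPM in control (log2 -1.73, adjusted p = 0.0769). Cpr49Ac was higher, with 2505 and 2881 CPM in rescue and 351 and 852 CPM in control. Of all genes, 30.7% were higher and 23.5% lower without overlap. For 11 glue genes the median was 0.69, with 5 higher and 2 lower without overlap (45.5% and 18.2%). The higher ones were Sgs3, Sgs4, Sgs5, Sgs7 and Sgs8, and the lower ones ng1 and ng3. For 17 pupal cuticle genes the median was -1.03, with 3 higher and 10 lower (17.6% and 58.8%). For 23 ecdysone response genes the median was 0.39, with 12 higher and 4 lower (52.2% and 17.4%). Control libraries were unlike for some ecdysone response genes. ImpE2 had 2.48 and 127 CPM in control and 203 and 197 CPM in rescue, and Hr4 had 1.35 and 21.6 CPM in control and 59.0 and 60.3 CPM in rescue. The median of control 1 minus control 2 in log2 of CPM plus 1 was -0.25 for ecdysone response genes and -1.48 for glue genes. Medians were 0.60 for 13 ecdysteroid synthesis genes, 0.26 for 30 imaginal disc genes, 0.16 for 32 cell cycle genes, -0.17 for 26 neuronal genes, 0.07 for 33 male germline genes and -0.15 for 11 storage and fat body genes, against 0.07 for all genes. By unadjusted p, 9.16% of all tested genes were higher and 9.67% lower in rescue. Higher and lower counts were 0 and 2 for glue, 3 and 8 for pupal cuticle and 3 and 2 for ecdysone response genes. They were 2 and 1 each for ecdysteroid synthesis, imaginal disc and cell cycle genes. Neuronal genes had 1 and 1, male germline genes 0 and 5, and storage genes 1 and 2. For imaginal disc, cell cycle and neuronal genes both shares were below those of all genes. DESeq2 called 2 glue, 9 pupal cuticle, 1 ecdysone response, 3 ecdysteroid synthesis, 2 male germline and 2 storage genes. It called 0 imaginal disc, cell cycle or neuronal genes. Of 19 genes of m6A, U6 and S-adenosylmethionine metabolism the median was 0.10, with 4 lower and 0 higher by unadjusted p and 0 called by edgeR or DESeq2.

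By chromosome arm, 30 of the 76 called genes lay on 2R, the arm that holds CG7544, or 1.24% of its 2418 tested genes. The share was 0.464% on 2L, 0.476% on 3L, 0.720% on 3R and 0.208% on X, and no gene of 92 on the fourth chromosome was called. By unadjusted p the arms differed less, with 20.8% on 2R, 18.6% on 3L, 19.7% on 3R, 16.1% on X, 17.4% on the fourth chromosome and 388 of 2153 genes on 2L. The balancer and the fio mutation are on the second chromosome, and the rescue label writes the [U6+] element on the same chromosome as fiomut. The parts of the balancer, the mutation and the element in the 2R share cannot be told apart. Of the 2R calls, 4 were loci listed without a gene name, and these were examined after their values were seen. The locus at 5049213 to 5056688 had 3 and 12 counts in rescue, against 2384 and 2757 counts in control, and 4 and 2 counts in the mutant. It fell by 8.65 (SE 0.47, adjusted p = 0.00146), and control was 405 times rescue (counting interval 245 to 724). The locus at 3482524 to 3483486 had 40 and 42 counts in rescue and 317 and 344 counts in control, and the locus at 3762196 to 3797522 had 98 and 173 counts in rescue and 624 and 731 counts in control. The locus at 2857147 to 2862879 was higher, with 616 and 243 counts in rescue and 12 and 13 counts in control, and 884 and 640 counts in the mutant. At all 4 loci the mutant libraries stood on the same side of control as the rescue libraries. Mutant and rescue larvae share the fio genotype, the U6mut/U6+ label and the lack of the balancer, whose parts cannot be told apart.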

How the data were processed

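Polyadenylated RNA of larvae was measured in 6 libraries, 2 per genotype, and groups were taken from the genotype labels. The deposited gene table holds raw counts per gene per the file headers, with coordinates and NCBI gene identifiers. A deposited FPKM table and a table of group mean FPKM by the authors were not used for tests. No source used here names the aligner, counter, strand setting or genome build, and positions are printed as deposited. Of 17669 genes matched to RefSeq's table of Release 6, 99.5% share its start. Without strand, overlapping genes are uncertain.

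All 6 libraries entered 1 fit of edgeR 4.0.16 in R 4.3.3 (quasi-likelihood test, TMM factors, filterByExpr on the groups at its minimum count, 10, and no block), since 2 libraries a group are too few alone, with Benjamini-Hochberg adjustment and a threshold of 0.05. The common dispersion was 0.0721. Log2 fold changes were fitted with a prior count of 0.125, and the SE was taken as their size divided by the square root of F. Libraries of a group differed far beyond counting noise (chi-square per degree of freedom 56.9 in rescue and 109 in control). Intervals are exact at 95%, and they and the floor of 3 counts cover counting error only. The script was tested on simulated data (10 simulations).

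The comparison, its members and 31 gene lists (721 of 741 named genes found, other families by symbol) were chosen with earlier results of these data known. After the files were read and before any fit, 7 misplaced members were dropped and the mitochondrial genome list was redefined by chromosome. Named genes were the 12 called genes with the largest rise and the 12 with the largest fall (at least 50 counts in each library of the higher group, no overlap), called list members, genes with at most 3 counts in 1 group and at least 50 in each library of the other, CG7544 and U6 genes, and the 4 most abundant uncalled members of the heat shock, muscle and glycolysis lists; others are said to be chosen after their values were seen. Alternatives were DESeq2 1.42.0, its size factors in edgeR, no low-count filter, only the 4 libraries compared, a replicate block, each library left out, and, added after seeing the data, both mitochondrial rRNAs left out.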

Additional observations from a re-analysis of the deposited data

How the results depend on the processing

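The 76 calls (all at least 2-fold) became 478 without the low-count filter (470 at least 2-fold), 1026 with DESeq2 (797), 11 with only the 4 libraries compared (11), 117 with the replicate block (117), and 50 to 778 (50 to 775) with a library left out; with DESeq2 size factors and without the mitochondrial rRNAs they were 71 and 73. The calls of the lists were as follows. Without the filter, 2 heat shock, 20 muscle, 8 glycolysis, 7 citric acid cycle, 18 respiratory chain and 41 genes of the other lists were called. With DESeq2 these were 4, 27, 18, 17, 50 and 78, with 6 Turandot and JAK-STAT genes. With the 4 libraries alone, 0 heat shock, 0 muscle and 1 of the other lists' genes were called. With a library left out, calls ranged from 1 to 3 for Turandot and JAK-STAT, 0 to 4 for heat shock, 0 to 21 for muscle, 0 to 15 for glycolysis, 0 to 12 for the citric acid cycle, 0 to 27 for the respiratory chain, 0 to 3 for the mitochondrial genome and 5 to 64 for the other lists. The medians ranged there from 1.22 to 2.77 for Turandot and JAK-STAT, 0.76 to 1.82 for heat shock, -1.15 to -0.66 for glycolysis and -1.01 to -0.11 for the mitochondrial genome. The medians of muscle, the citric acid cycle and the respiratory chain stayed below 0 there. Of the 41 named genes Hsp83 changed sign, ranging from -0.20 without rescue 1 to 0.70 without rescue 2 (not called), and no other did under any of the alternatives. With the 4 libraries alone, 22 of the 41 changed their side of the threshold. The cause of these changes was not tested.

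Whether the replicate numbers pair the libraries is not stated. Deviations of same-numbered libraries from their group means correlated at 0.055 between rescue and control. With 2 libraries a group, whose deviations mirror each other, this value cannot exclude a pairing. With the replicate block, 0 heat shock, 2 muscle, 4 respiratory chain and 16 genes of the other lists were called, and TotA and Hsp68 missed the threshold (adjusted p = 0.0536 and 0.0531). Changes of 2-fold were mostly not detectable at this number of libraries.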
